A study of Mus musculus with 6 samples.

Results

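The replication-dependent histone genes, chosen as every RefSeq row whose symbol begins with Hist1h, Hist2h, Hist3h or Hist4h, made up 68 of the 23473 RefSeq rows of a bulk RNA-seq table of tumor endothelial cells (TECs). By class, 6 rows belonged to the linker histone H1, 18 to H2A, 19 to H2B, 12 to H3 and 13 to H4. The H2B rows include Hist3h2bb-ps, a pseudogene, which was tested with the others. The table held 3 control (Ctrl) libraries and 3 NICeCA libraries, all from C57BL/6 mice whose labels give an age of 8 weeks. Ctrl mice are labelled wild type. NICeCA mice carried Cdh5-CreERT and a ROSA allele from which tamoxifen-induced removal of a floxed stop releases the intracellular domain of Notch1 (NIC), so that Notch signaling was switched on in Cdh5-expressing cells without a ligand. The labels do not state whether Ctrl mice received tamoxifen or carried a Cre allele. All mice bore subcutaneous Lewis lung carcinoma (LLC), a transplanted tumor grown from a mouse lung cancer line, and TECs were pulled from digested tumors on CD31-coated beads, with a stated purity above 90%. Each library came from its own mouse, although the labels mention different days of dissection and the methods a single day. The question put to these rows was whether their levels differed between TECs with and without activated Notch.

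Replication-dependent histones package newly copied DNA, and cells make most of their mRNA during S phase, when each genome's worth of nucleosomes must be doubled. H2A, H2B, H3 and H4 form the core of the nucleosome, and H1 binds the linker DNA between cores. Their genes lie in clusters, lack introns for the most part and give mRNAs that end in a conserved stem-loop instead of a poly(A) tail, which the stem-loop binding protein SLBP reads in processing, translation and decay. Libraries made by depletion of ribosomal RNA, as here, keep such transcripts, whereas selection for poly(A) would lose most of them.

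The stem-loop is the feature that sets these transcripts apart, and it is shown here for an abundant member of each class as DNA, with 5 bases on each side and the 16 bases of the stem-loop in capitals. Sequences are from the GENCODE M21 transcripts on GRCm38, the build of the table's positions.
Hist1h1c (H1), chr13:23739507-23739532, plus strand: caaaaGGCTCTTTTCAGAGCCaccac
Hist2h2ac (H2A), chr3:96220413-96220438, minus strand: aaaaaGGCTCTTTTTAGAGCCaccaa
Hist1h2bb (H2B), chr13:23747198-23747223, plus strand: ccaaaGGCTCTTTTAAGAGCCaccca
Hist1h3c (H3), chr13:23745042-23745067, minus strand: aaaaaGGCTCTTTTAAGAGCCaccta
Hist1h4d (H4), chr13:23581945-23581970, plus strand: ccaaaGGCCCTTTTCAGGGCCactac

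The pattern searched was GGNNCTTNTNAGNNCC on the transcript strand after the stop codon. It was found in 45 of the 68 member transcripts and in 38 of the 43 members whose transcript model ran on for at least 75 bases after the stop codon. Of all 58797 GENCODE protein-coding transcripts, histones included, 0.355% held it anywhere in the transcript, a wider search than that after the stop codon. The stem separated H4 from the other classes. All 12 H4 stem-loops found began with GGCCC (10 members) or GGTCC (2 members), and all 33 found in H1, H2A, H2B and H3 began with GGCTC. The form in Hist1h1c was the most frequent, with 25 members. A missing match says only that the letters were not in the window of the model.

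The promoters also differed by class. A RefSeq window from 250 bases before to 50 bases after the start of the gene (GRCm38.p6) was matched for 62 of the 68 rows, giving 63 windows. A window of the H2B gene Hist1h2bg, which shares its promoter with the H2A gene Hist1h2ae on the other strand, and a window of the H4 gene Hist1h4d are shown, with CCAAT and the octamer ATTTGCAT, on either strand, in capitals.
Hist1h2bg, chr13:23571150-23571449, plus strand: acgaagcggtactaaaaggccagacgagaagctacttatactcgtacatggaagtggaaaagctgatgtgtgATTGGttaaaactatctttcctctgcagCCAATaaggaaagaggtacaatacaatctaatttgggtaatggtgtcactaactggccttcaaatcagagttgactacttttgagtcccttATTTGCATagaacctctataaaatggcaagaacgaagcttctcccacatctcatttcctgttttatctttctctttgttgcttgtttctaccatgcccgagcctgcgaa
Hist1h4d, chr13:23581318-23581617, plus strand: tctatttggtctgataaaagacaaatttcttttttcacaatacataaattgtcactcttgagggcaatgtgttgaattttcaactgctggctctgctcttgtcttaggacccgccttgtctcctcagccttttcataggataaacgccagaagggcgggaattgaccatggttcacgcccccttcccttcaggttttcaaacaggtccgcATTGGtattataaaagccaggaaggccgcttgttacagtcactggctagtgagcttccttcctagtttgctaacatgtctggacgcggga

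CCAAT, the letters of the box bound by NF-Y, stood on 1 strand or the other in all 51 windows of H1, H2A, H2B and H3 genes. It stood in 3 of 12 windows of H4 genes, the window shown for Hist1h4d among them, and in 37.4% of all 32851 promoter windows. The octamer, the letters bound by the POU factor Oct1 (Pou2f1), was found in 7 of 18 H2A and 7 of 17 H2B windows, in 0 of the 28 others and in 1.74% of all windows. AAACACA, the letters of the H1 box, stood in 5 of 6 H1 windows and in 7.18% of all windows. TATAAA stood in 4 of 6 H1, 11 of 18 H2A, 8 of 17 H2B, 4 of 10 H3 and 8 of 12 H4 windows, against 13.6% of all. The windows of H2A and H2B genes that face each other overlap, so they are not independent.

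Values are RPKM, the reads on a row divided by its length and by the library total. Depth on RefSeq rows, recovered from the steps of the deposited values, was 27793329 to 30769948 reads per library. Histone rows took 174258 to 284815 reads per library, or 0.584% to 0.926% of the reads on RefSeq rows. Endothelial markers were present in every library, with Pecam1 at 47.5 to 154 RPKM and Cdh5 at 30.9 to 96.5 RPKM. Markers of other cells were present too. Macrophage markers summed to 1176 to 1488 RPKM in Ctrl and 822 to 1653 RPKM in NICeCA libraries, and neutrophil markers to 71.6 to 226 RPKM in Ctrl and 402 to 1430 RPKM in NICeCA libraries. Notch1, which the transgene encodes in part, had 14.3, 8.19 and 13.8 RPKM in Ctrl and 12.3, 13.6 and 12.6 RPKM in NICeCA libraries, so its row did not tell the genotypes apart.

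Summed over all 68 rows, the difference in histone mRNA between the groups was smaller than the spread between Ctrl libraries. The sums were 8680, 13947 and 11296 RPKM in Ctrl replicates 1, 2 and 3 and 11986, 10956 and 10633 RPKM in NICeCA replicates 1, 2 and 3. Every NICeCA library lay between the lowest and the highest Ctrl library. The means were 11307 ± 2634 RPKM in Ctrl and 11192 ± 707 RPKM in NICeCA TECs (SD, n = 3 mice each), a ratio of 0.99. No test was made of this sum, and its log2 ratio ran from -0.17 to 0.16 over 8 alternatives. The libraries of the Ctrl group were spread more widely, with a coefficient of variation of 23.3% against 6.31% in NICeCA libraries, and Ctrl replicate 2 held 1.61 times the level of Ctrl replicate 1. With 3 mice in each group this difference in spread is a description and was not tested.

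The classes had the same lowest and highest libraries. H4 was the most abundant by summed RPKM, at 40.6% to 47.1% of all histone RPKM in the 6 libraries. H2B took 19.8% to 22.4%, H3 15.2% to 18.4%, H2A 10.4% to 11.6% and H1 6.43% to 7.10%. H4 summed to 4078, 6238 and 4586 RPKM in Ctrl and 5632, 5158 and 4661 RPKM in NICeCA libraries. H3 summed to 1334, 2125 and 2076 RPKM in Ctrl and 1886, 1720 and 1817 RPKM in NICeCA libraries. In all 5 classes the NICeCA libraries lay inside the Ctrl range, with Ctrl replicate 1 at its bottom and Ctrl replicate 2 at its top.

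**Figure D1:**
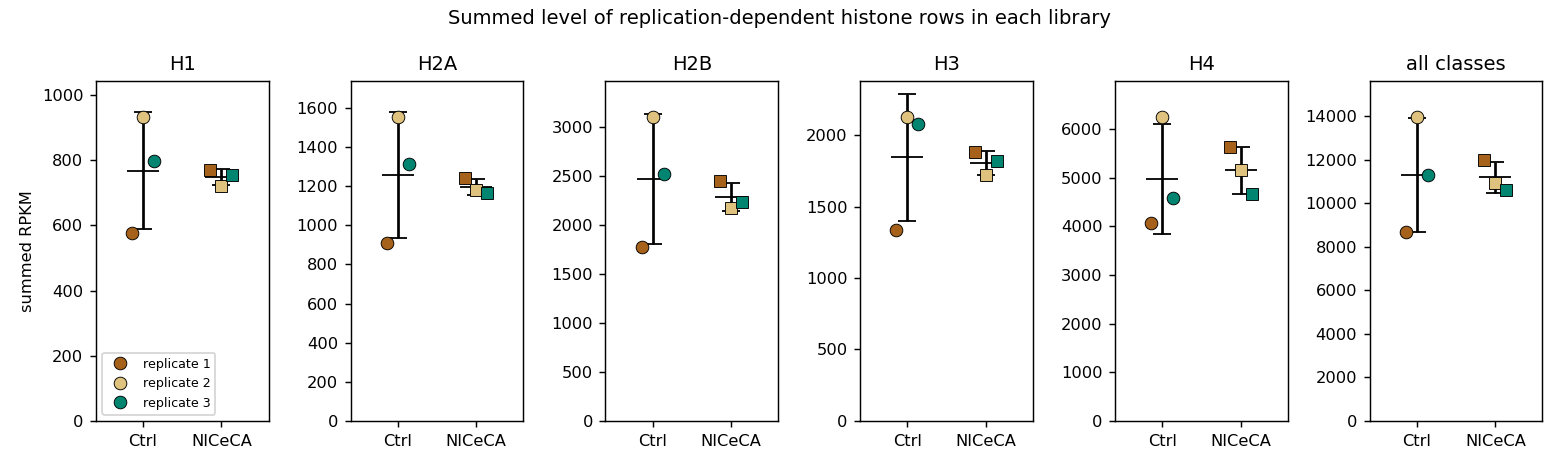
Summed RPKM of the histone rows of each class and of all classes (vertical axes from 0) in Ctrl (circles) and NICeCA (squares) libraries; each point is a library, the colour gives its replicate number, and bars are the mean and SD of 3 mice. In every panel the 3 NICeCA points lie between Ctrl replicate 1 and Ctrl replicate 2.

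Of the 68 rows, 60 had a mean of at least 1 RPKM over the 6 libraries and were tested, together with all other such rows, on log2(RPKM + 1) with limma. None was called: 0 of 60 histone rows had a Benjamini-Hochberg adjusted p under 0.05, where 13.6 percent of the 12320 rows tested were called (5.88 percent higher and 7.68 percent lower in NICeCA TECs). At an unadjusted limma p under 0.05 the count was 1 of 60, Hist2h2aa1, against 35.5 percent of all rows, and limma voom on the recovered reads also called 0. The 2 groups did not overlap in 2 of 60 rows, Hist1h1c and Hist2h3c1, against 40.9 percent of all rows. Log2 fold changes (NICeCA against Ctrl, understated for rows with low values) were positive in 28 rows and negative in 32, from -0.38 in Hist1h3g to 0.73 in Hist2h2aa1. Their median was -0.01, beside -0.05 for all rows tested.

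The precision behind the missing calls was limited. The median standard error of the log2 fold change was 0.21 in histone rows and 0.15 in all rows. The 95% interval stayed within a 2-fold change in either direction for 57 of 60 histone rows, against 80.5 percent of all rows, and within 1.5-fold for 31 of 60, against 42.8 percent. For the remaining rows the interval reached past 1.5-fold, so changes larger than that were not excluded. In simulated reads at this depth and spread, the test recovered 48.0% of 98 rows changed 2-fold and 91.7% of 96 rows changed 4-fold. The changed rows were drawn from all rows at the level filter, and rows varied independently of each other. These are therefore not rates for the histone rows, whose standard errors were larger and which moved together.

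**Figure D2:**
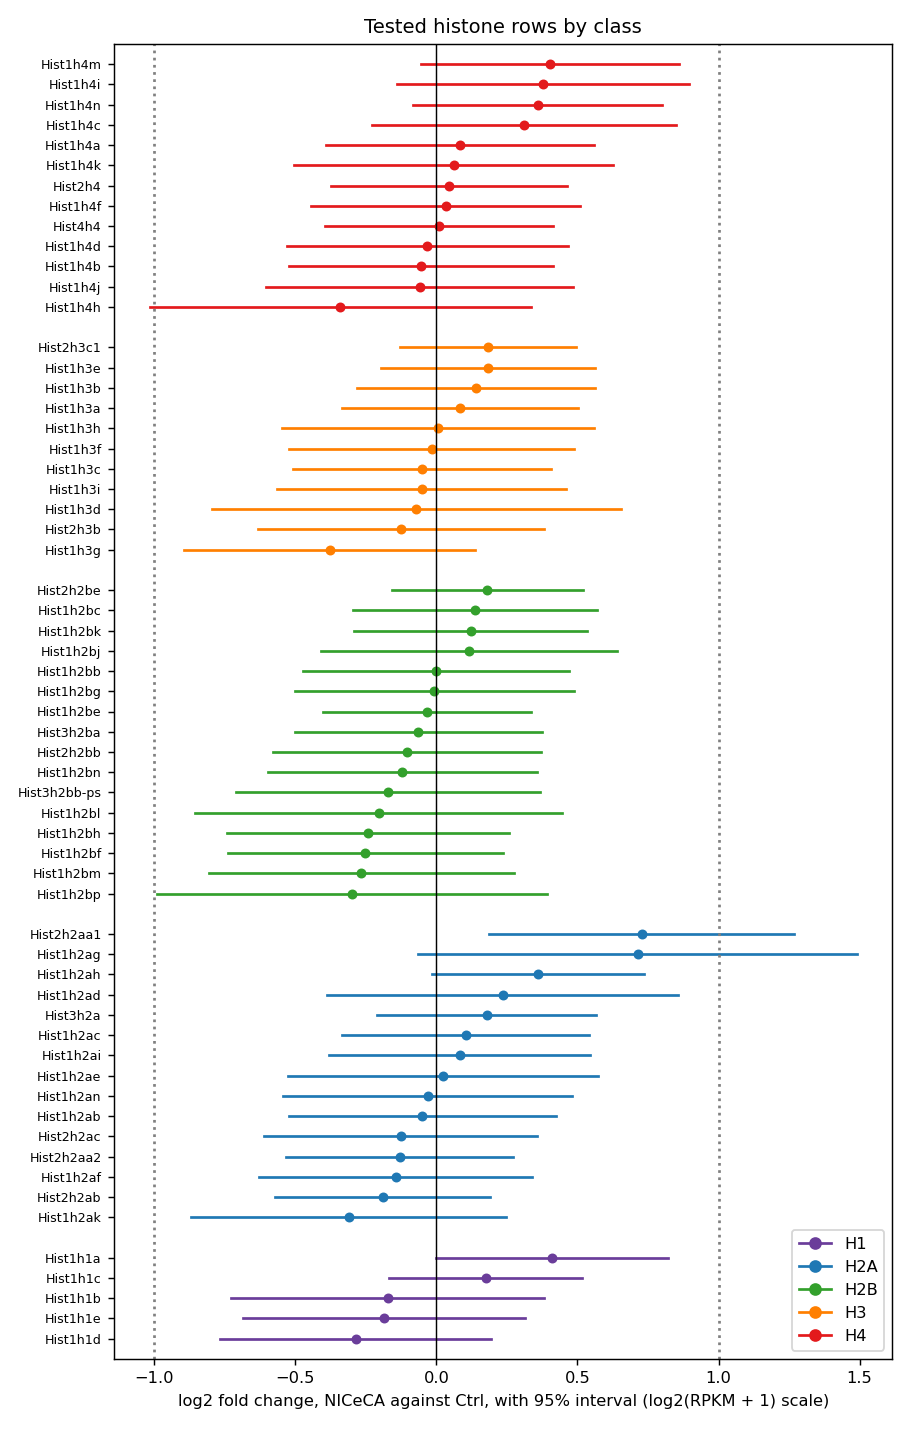
Log2 fold change of each of the 60 tested histone rows, NICeCA against Ctrl, on the log2(RPKM + 1) scale, with its 95% interval from limma and coloured by class; dotted lines mark 2-fold. The interval of Hist2h2aa1 alone lies clear of 0 and those of 3 rows, among them Hist1h2ag, cross a 2-fold line.

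The wide spread came from 2 Ctrl libraries that moved most histone rows together. Ctrl replicate 2 was the highest of the 6 libraries in 39 of 60 rows, against 31.9 percent of all rows, and Ctrl replicate 1 was the lowest in 49 of 60, against 18 percent of all rows. Relative to the mean of the 6 libraries, the histone rows deviated on average by -0.37, 0.27 and 0.07 (log2) in Ctrl replicates 1, 2 and 3 and by 0.10, -0.03 and -0.04 in NICeCA replicates 1, 2 and 3. Genes of S phase and proliferation deviated by -0.17, 0.42 and 0.14 in Ctrl libraries and by -0.13, -0.27 and 0.01 in NICeCA libraries, so that the highest and lowest Ctrl libraries were the same for both lists. All 6 endothelial markers ran the other way within the Ctrl group, summing to 304, 111 and 167 RPKM there and to 258, 337 and 335 RPKM in NICeCA libraries. Fibroblast markers summed to 44.5, 87.9 and 75.1 RPKM in Ctrl and to between 34.0 and 62.6 RPKM in NICeCA libraries, and the epithelial marker Krt18 alone of its list of 4 exceeded a mean of 1 RPKM. Cells other than endothelial cells can carry histone mRNA, and the part of cell composition in these levels was not tested. In bulk samples, fewer cells of a type and less RNA per cell cannot be told apart.

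**Figure D3:**
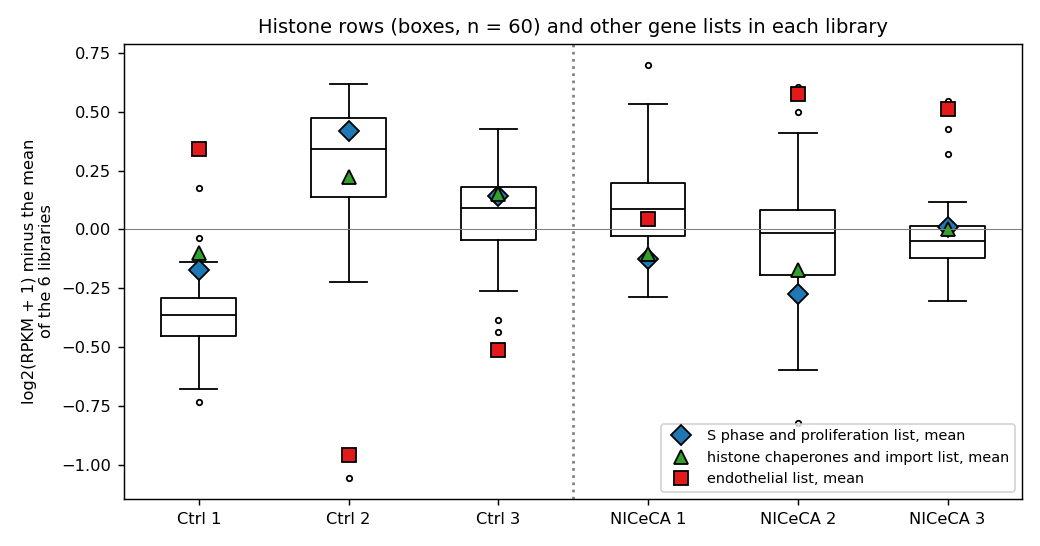
Deviation of log2(RPKM + 1) from the mean of the 6 libraries for the 60 tested histone rows (boxes: median, quartiles, whiskers to 1.5 times the interquartile range, circles beyond) and the mean deviation of 3 gene lists (symbols) in each library. Ctrl 1 has the lowest box and Ctrl 2 the highest, and the endothelial symbol is highest of the Ctrl group in Ctrl 1 and lowest in Ctrl 2.

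Among linker histones Hist1h1c had the highest mean RPKM and Hist1h1a the lowest of the tested rows. RPKM is averaged over rows of unlike extent, from 672 bases (Hist1h1b, coding sequence alone) to 2977 bases (Hist1h1d), so this order is one of row averages. The median log2 fold change of the 5 tested rows was -0.17, with 2 positive and 3 negative. Hist1h1c (chromosome 13, 23738807 to 23740367), which encodes H1.2, had 218, 285 and 284 RPKM in Ctrl and 304, 286 and 291 RPKM in NICeCA libraries. All NICeCA values lay above all Ctrl values, by a narrow margin at Ctrl replicate 2, and the log2 fold change of 0.17 (standard error (SE) 0.15) did not pass the test (limma adjusted p = 0.427). Hist1h1a (23763668 to 23764414), encoding H1.1, had 49.6, 62.2 and 57.6 RPKM in Ctrl and 89.1, 80.0 and 59.0 RPKM in NICeCA libraries. NICeCA replicate 3 lay among the Ctrl values, and the log2 fold change was 0.41 (SE 0.18, limma adjusted p = 0.143).

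The other H1 genes had negative log2 fold changes that did not pass the test. Hist1h1b (H1.5) had 144, 294 and 217 RPKM in Ctrl and 186, 179 and 191 RPKM in NICeCA libraries. Hist1h1d (H1.3) had 55.3, 98.7 and 85.4 RPKM in Ctrl and 66.0, 60.4 and 64.0 RPKM in NICeCA libraries, a log2 fold change of -0.29 (SE 0.21, limma adjusted p = 0.354). Hist1h1e (H1.4) had 108, 191 and 152 RPKM in Ctrl and 125, 115 and 149 RPKM in NICeCA libraries. In each of these 3 genes Ctrl replicate 1 held the lowest value of all and Ctrl replicate 2 the highest. Hist1h1t, the linker histone of the testis, averaged 0.432 RPKM and was not tested.

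Dividing each H1 gene by the H1 sum of its own library removed the movement shared by the class. Hist1h1d then took 9.62% to 10.7% of H1 RPKM in Ctrl and 8.37% to 8.56% in NICeCA libraries, 10.3% ± 0.61 against 8.47% ± 0.095 (SD, n = 3). Hist1h1c took 37.9%, 30.6% and 35.7% in Ctrl and 39.4%, 39.7% and 38.6% in NICeCA libraries. Neither gene's shares overlapped between the groups, while the RPKM values of Hist1h1d did overlap. Of all rows tested, 40.9 percent did not overlap between the groups in RPKM. These 2 of 6 shares were picked after their values were seen, shares of 1 sum depend on each other, and no test was made of them.

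For H2A, 15 rows were tested, and their median was 0.02 (log2), with 8 positive and 7 negative. The most abundant were Hist2h2ac, Hist1h2ak, Hist1h2ab and Hist1h2ai. Hist2h2ac (chromosome 3, 96220455 to 96220844) had 176, 314 and 225 RPKM in Ctrl and 195, 220 and 223 RPKM in NICeCA libraries (limma adjusted p = 0.692). Hist1h2ak had 160, 311 and 229 RPKM in Ctrl and 197, 153 and 198 RPKM in NICeCA libraries, the most negative H2A log2 fold change at -0.31 (SE 0.24, limma adjusted p = 0.386). Hist1h2ab stood at 185 ± 48.0 RPKM in Ctrl and 175 ± 12.5 RPKM in NICeCA TECs, and Hist1h2ai at 138 ± 37.8 and 142 ± 8.52 RPKM (SD, n = 3). In each of the 4 the groups overlapped.

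Hist2h2aa1 and Hist1h2ag, named after their values were seen, had the largest positive differences of all members. Hist2h2aa1 had 0.576, 1.48 and 0.932 RPKM in Ctrl and 2.65, 2.84 and 1.44 RPKM in NICeCA libraries, from 13 to 58 reads per library. The groups overlapped at NICeCA replicate 3, and the log2 fold change of 0.73 (SE 0.23) missed the threshold (limma adjusted p = 0.072). Without NICeCA replicate 3 the limma adjusted p was 0.0436, the only call of any member in any alternative tried. Hist2h2aa2, whose row has the same outer positions and whose coding sequence it shares, had 2.76, 1.94 and 2.80 RPKM in Ctrl and 2.74, 1.68 and 2.20 RPKM in NICeCA libraries. Summed, the 2 rows gave 3.33, 3.42 and 3.73 RPKM in Ctrl and 5.40, 4.52 and 3.64 RPKM in NICeCA libraries, so the division of reads between copies bears on the value of either. Hist1h2ag had 40.6, 22.4 and 55.3 RPKM in Ctrl and 77.9, 67.7 and 43.4 RPKM in NICeCA libraries, with overlap and the widest interval of the 60 tested rows, from -0.06 to 1.49 (log2).

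H2B rows were negative more often than positive, 12 to 4, but with small values, a median of -0.08 and a range of -0.30 to 0.18. Hist2h2bb (chromosome 3, 96269700 to 96270192), the most abundant, had 436, 755 and 637 RPKM in Ctrl and 566, 537 and 555 RPKM in NICeCA libraries. The NICeCA values clustered within the Ctrl range (limma adjusted p = 0.743). Hist1h2bb had 220, 380 and 313 RPKM in Ctrl and 311, 302 and 277 RPKM in NICeCA libraries, a difference near 0 (limma adjusted p = 0.998). Hist1h2bg stood at 261 ± 71.3 RPKM in Ctrl and 253 ± 15.9 RPKM in NICeCA TECs, and Hist1h2bm at 218 ± 71.8 and 175 ± 15.7 RPKM (SD, n = 3). Hist1h2bm had a log2 fold change of -0.27 (SE 0.23, limma adjusted p = 0.445) and overlapping groups.

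The 11 tested H3 rows had a median of -0.02, with 5 positive and 6 negative. Hist1h3c (chromosome 13, 23745042 to 23745521) had 284, 476 and 405 RPKM in Ctrl and 388, 359 and 355 RPKM in NICeCA libraries, a log2 fold change of -0.05 (SE 0.20, limma adjusted p = 0.876). Hist1h3e had 266, 316 and 385 RPKM in Ctrl and 389, 346 and 351 RPKM in NICeCA libraries, with a log2 fold change of 0.18 (SE 0.16, limma adjusted p = 0.455). In Hist1h3e the highest Ctrl library was replicate 3 and not replicate 2. Hist1h3f stood at 210 ± 60.7 and 201 ± 5.82 RPKM and Hist1h3h at 209 ± 68.1 and 202 ± 8.54 RPKM in Ctrl and NICeCA TECs (SD, n = 3). Hist1h3g, named after its values were seen, had the most negative value of the 60 tested rows, at 93.8 ± 28.4 RPKM in Ctrl and 69.8 ± 7.42 RPKM in NICeCA TECs (SD, n = 3, log2 fold change -0.38, SE 0.22, limma adjusted p = 0.258). Ctrl replicate 1, at 64.7 RPKM, was as low as the NICeCA libraries, which had 65.0, 66.2 and 78.4 RPKM.

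H4 rows had a median of 0.05, with 9 positive and 4 negative. All 13 were above the minimum level, although the H4 protein is the same from nearly all of these genes. Hist1h4d (chromosome 13, 23581602 to 23581913) was the most abundant histone row, with 826, 1237 and 850 RPKM in Ctrl and 1143, 770 and 924 RPKM in NICeCA libraries. Both groups spanned much the same range (limma adjusted p = 0.929). Hist1h4f stood at 711 ± 187 and 714 ± 78.3 RPKM in Ctrl and NICeCA TECs (SD, n = 3). Hist1h4h had 589, 849 and 626 RPKM in Ctrl and 749, 341 and 604 RPKM in NICeCA libraries, where NICeCA replicate 2 was the lowest of all 6 and the interval of the log2 fold change ran from -1.02 to 0.34. Hist1h4m had 329, 473 and 489 RPKM in Ctrl and 569, 649 and 477 RPKM in NICeCA libraries, the largest positive H4 value (log2 fold change 0.40, SE 0.20, limma adjusted p = 0.184), with NICeCA replicate 3 inside the Ctrl range. All coding stretches of Hist1h4m also occur in Hist1h4n, whose row had a log2 fold change of 0.36.

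Reads of near-identical copies limit how far single members can be told apart. Every stretch of 100 bases in each member's coding sequence was looked up in the transcripts of the other members. In 12 rows all stretches were shared, in 27 rows from 50% to under 100%, in 19 rows some but under 50%, and in 10 rows none. The 12 fully shared rows had a median level of 1.34 RPKM, and 8 of them were under 5 RPKM, while none of the 27 rows next to them was under 19.1 RPKM. The exceptions were Hist1h4m and Hist1h4n with means of 498 and 293 RPKM and Hist1h2ag and Hist1h2ad with 51.2 and 42.9 RPKM. A low value of a fully shared row is not evidence that the gene was silent, because the treatment of reads with several equal hits was not given in the sources used here. Sums over classes carry the same limit, though not its division among copies.

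**Figure D4:**
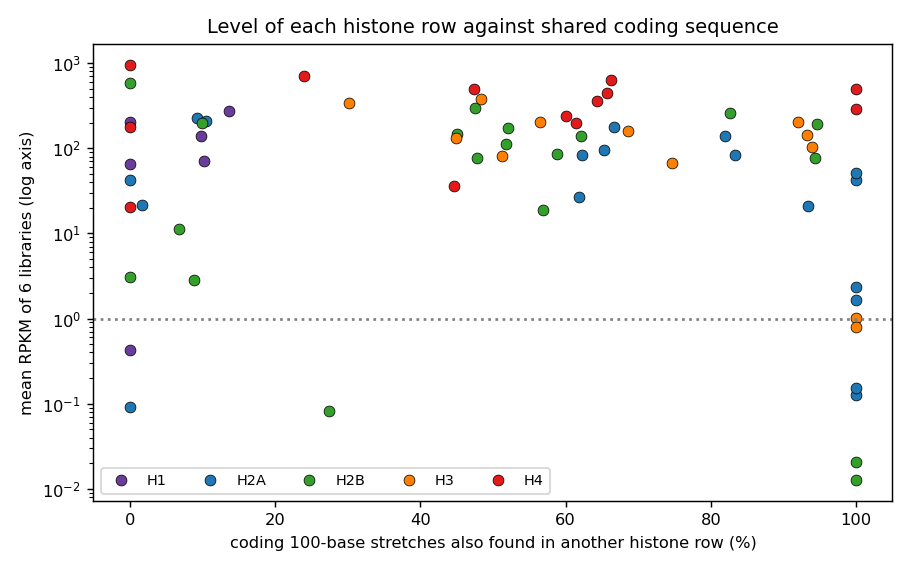
Mean RPKM over the 6 libraries (log axis) of each of the 68 histone rows against the percent of its coding 100-base stretches found in another histone transcript, coloured by class; the dotted line is the minimum level of 1 RPKM. At 100% the points run from 0.0127 to 498 RPKM, with 8 of 12 under 5 RPKM.

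The 8 rows under the minimum level were of 2 kinds. Hist1h1t, Hist1h2aa and Hist1h2ba belong to the germline, with 0.432, 0.0921 and 0.0822 RPKM. Hist1h2ao, Hist1h2ap, Hist1h2bq, Hist1h2br and Hist2h3c2 were fully shared with another copy, with 0.127, 0.155, 0.0208, 0.0127 and 0.787 RPKM. Just above the minimum lay Hist2h3c1, with 0.758, 0.963 and 0.969 RPKM in Ctrl and 1.14, 1.13 and 1.18 RPKM in NICeCA libraries. Its groups did not overlap, on 54 to 80 reads per library, and the log2 fold change of 0.18 did not pass the test (limma adjusted p = 0.361).

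By position, rows less than 100 kb apart formed 7 groups, 4 of them on chromosome 13. The largest, at 23531044 to 23764414, held 28 tested rows, median -0.01 (log2), and the group at 21715763 to 21837530 held 14 with a median of -0.06. The 9 tested rows of the chromosome 3 group, at 96219916 to 96270192, had a median of -0.10. In a small group at 22035166 to 22043610 all 5 rows, Hist1h2ag, Hist1h2ah, Hist1h2bj, Hist1h2bk and Hist1h4i, were positive, with a median of 0.36 and none called. That group was singled out after its values were seen. All coding stretches of Hist1h2ag, 94.3% of those of Hist1h2bk and 93.4% of those of Hist1h2ah also occur in other members. For Hist1h2bj and Hist1h4i the shares were 51.8% and 44.6%. The values of these rows therefore cannot be assigned to this group alone. Hist1h2ah had 14.8, 17.4 and 22.5 RPKM in Ctrl and 24.9, 23.1 and 22.0 RPKM in NICeCA libraries, and Hist1h4i had 22.9, 36.0 and 34.2 RPKM in Ctrl and 38.4, 32.1 and 51.3 RPKM in NICeCA libraries, both with overlapping groups.

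Facing pairs of H2A and H2B rows, with starts 164 to 281 bases apart, numbered 11, the pseudogene Hist3h2bb-ps with Hist3h2a among them, and in 10 of them both rows were tested. The partners were not equally abundant. In 6 of the 11 pairs H2B had the higher mean RPKM. Hist1h2bc stood at 195 RPKM beside 27.1 RPKM for Hist1h2ac, and Hist2h2be at 3.07 RPKM beside 226 RPKM for Hist2h2ac. The 2 partners had the same sign of log2 fold change in 5 of 10 pairs. Row length enters these ratios, since the Hist2h2be and Hist1h2ac rows include long 3′ ends (2618 and 2493 bases in all) and RPKM is averaged over them.

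The genes that make, process and carry histones were taken from 5 lists, whose called counts stand beside the 5.88 percent of all rows called higher and 7.68 percent called lower. Of histone mRNA processing and decay genes, 23 of 24 were tested, and 0 were called higher and 2 lower (median log2 fold change 0.02). Slbp, the stem-loop binding protein, had 17.5, 19.4 and 22.7 RPKM in Ctrl and 25.7, 24.2 and 24.2 RPKM in NICeCA libraries. Its groups did not overlap, as in 40.9 percent of all rows tested, and its log2 fold change of 0.31 did not pass the test (limma adjusted p = 0.133). Sympk, the scaffold symplekin of the 3′ cleavage complex, fell from 18.3 ± 2.42 to 11.4 ± 0.968 RPKM (SD, n = 3, log2 fold change -0.64, limma adjusted p = 0.0317). Upf1, a helicase that acts in the decay of histone mRNA when replication stops, fell from 21.8 ± 3.26 to 13.4 ± 0.873 RPKM (SD, n = 3, log2 fold change -0.65, limma adjusted p = 0.0317). Both calls were lost without Ctrl replicate 2, NICeCA replicate 1 or NICeCA replicate 2, where the values of Sympk were -0.54, -0.65 and -0.58 and those of Upf1 -0.54, -0.64 and -0.62 (log2). Lsm10 and Lsm11, of the U7 particle, differed by 0.16 and -0.13 (log2) and Casp8ap2 (FLASH) by -0.06, none of them called.

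Of 14 genes of histone gene transcription, 0 were called (limma) and 3 had positive and 11 negative log2 fold changes, with a median of -0.19. Npat, the coactivator that cyclin E/Cdk2 phosphorylates at histone loci, had 2.58, 3.22 and 3.83 RPKM in Ctrl and 2.48, 2.76 and 2.77 RPKM in NICeCA libraries (limma adjusted p = 0.383). Histone chaperones and importers numbered 26, with 0 called higher, 3 lower and a median of -0.12. Cabin1 and Hira, subunits of the HIRA complex that deposits H3.3, had log2 fold changes of -0.80 and -0.58 (limma adjusted p = 0.0223 and 0.044), and the import factor Ipo4 of -0.68 (limma adjusted p = 0.0428). Cabin1 fell from 8.79, 11.7 and 9.88 RPKM in Ctrl to 5.31, 4.68 and 6.10 RPKM in NICeCA libraries. Without NICeCA replicate 1 or 2 none of the 3 was called, with values of -0.80 and -0.73 for Cabin1, -0.53 and -0.54 for Hira and -0.69 and -0.56 for Ipo4 (log2). Hira and Ipo4 were also not called without Ctrl replicate 2 (-0.47 and -0.56) or 3 (-0.60 and -0.66), and with the length trend removed Cabin1 was at -0.53. Chaf1a, the large subunit of the CAF-1 chaperone for newly made H3 and H4, had 8.17, 16.6 and 9.67 RPKM in Ctrl and 4.90, 4.71 and 7.69 RPKM in NICeCA libraries, with a limma adjusted p of 0.0663. The H3 and H4 chaperones Asf1b and Nasp, at -0.21 and 0.12 (log2), did not pass the test.

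Among 21 genes of S phase and proliferation, 0 were called higher and 1 lower, with a median of -0.25 and 17 negative. Mki67, the proliferation marker, fell (log2 fold change -0.90, limma adjusted p = 0.0409), whereas Pcna, the sliding clamp of the replication fork, had 80.9, 86.0 and 86.7 RPKM in Ctrl and 121, 125 and 103 RPKM in NICeCA libraries (limma adjusted p = 0.0523). The call of Mki67 was lost without Ctrl replicate 2 or 3 (-0.69 and -0.97) and without NICeCA replicate 1 or 2 (-0.79 and -0.84), and with the length trend removed its value was -0.54 (limma adjusted p = 0.136). Pcna was called in trimmed mean scaling alone (limma adjusted p = 0.0376). The fibroblast markers Pdgfra and Lum (2 of 4) and the epithelial marker Krt18 (the 1 tested of 4) were called lower too, at -0.89, -1.01 and -0.98 (log2). The other fibroblast markers, Dcn at -0.82 and Col1a1 at 0.10, were not called. The part of these cells in the fall of Mki67 was not tested.

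Replacement histones and variants, most of them not confined to S phase, included called genes. Of 11 tested, 2 were higher and 0 lower, with a median of 0.00. Both encode H3.3. H3f3b had 148, 169 and 197 RPKM in Ctrl and 297, 285 and 275 RPKM in NICeCA libraries, and rose by 0.74 on the log2 scale (SE 0.14, limma adjusted p = 0.0259). H3f3a had 189, 179 and 237 RPKM in Ctrl and 348, 386 and 295 RPKM in NICeCA libraries, and rose by 0.76 (SE 0.17, limma adjusted p = 0.033). For both, every NICeCA library lay above every Ctrl library, where 40.9 percent of all rows tested did not overlap between the groups. Under quantile normalization the values were 0.36 for H3f3b and 0.38 for H3f3a, and neither was called (limma adjusted p = 0.0858 and 0.136). Without Ctrl replicate 2, NICeCA replicate 1 or NICeCA replicate 2 neither was called, at 0.74, 0.72 and 0.74 for H3f3b and 0.68, 0.75 and 0.68 for H3f3a (log2), nor was H3f3a without Ctrl replicate 1 (0.72). H2afz, for H2A.Z, and H1f0, for H1.0, did not pass the test, with differences of 0.18 and -0.09 (log2; limma adjusted p = 0.325 and 0.791).

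Set against the replication-dependent H3 rows of the same library, the 2 H3.3 genes summed to 25.2%, 16.4% and 20.9% of summed H3 RPKM in Ctrl and to 34.2%, 39.0% and 31.4% in NICeCA libraries. The groups did not overlap, at 20.8% ± 4.41 and 34.9% ± 3.87 (SD, n = 3), and the replication-dependent H3 sum showed no such separation. This ratio was formed with the values known and was not tested. Between the groups, 3 of 4 tested neutrophil markers were called higher, as were H3f3a and H3f3b. Of 4 tested macrophage markers 1 was called higher, Cd68 (0.75, log2). In that list 2 were positive and 2 negative, Csf1r at -0.30 and C1qa at -0.54. Of 3 tested pericyte and smooth muscle markers 1 was called higher, Rgs5 (1.40). There 2 were positive and 1 negative, Pdgfrb at -0.03. All 6 endothelial markers were positive, with 0 called and a median of 0.71. Neutrophil markers summed to 71.6, 179 and 226 RPKM in Ctrl replicates 1, 2 and 3. There H3f3b had 148, 169 and 197 RPKM and H3f3a 189, 179 and 237 RPKM. In NICeCA replicates 1, 2 and 3 neutrophil markers summed to 402, 677 and 1430 RPKM. Both H3f3a and H3f3b were lowest of that group in NICeCA replicate 3. The part of these cells in the H3.3 values was not tested.

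**Figure D5:**
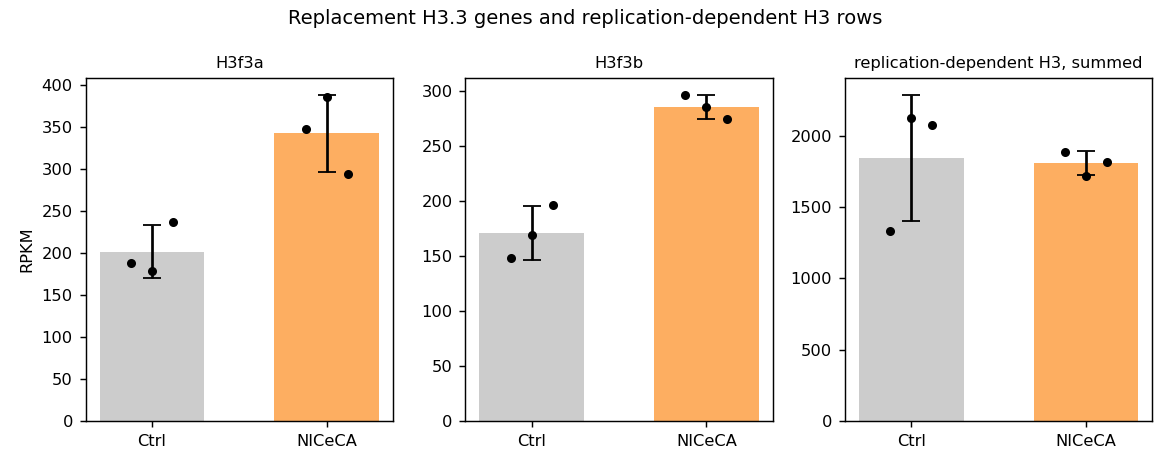
RPKM of the replacement genes H3f3a and H3f3b and summed RPKM of the replication-dependent H3 rows in Ctrl and NICeCA libraries (bars from 0: mean; lines: SD; points: 3 mice). All NICeCA points exceed all Ctrl points for H3f3a and H3f3b, while the 3 NICeCA sums of H3, 1720 to 1886 RPKM, lie within the Ctrl range of 1334 to 2125 RPKM. Of all rows tested, 40.9 percent did not overlap between the groups.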

How the data were processed

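Each library came from total RNA of bead-isolated TECs after ribosomal RNA removal. The authors aligned reads with TopHat2, per the labels to mm9, and deposited RPKM values for RefSeq and FANTOM3 rows with each row's length. The counting tool, strand setting and handling of multiple hits were not given in the sources used here. Positions are GRCm38: all 68 histone rows overlap their gene in GRCm38.p6. FANTOM3 rows were left out of the tests because they cover the same reads. Opposite-strand FANTOM3 rows over Hist1h1d and Hist3h2a held 6315 to 11696 and 2570 to 3596 reads, beside 6346 to 11704 and 2813 to 3901 for the histone rows, so reads were not separated by strand.

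In 100% of values under 1000 reads, RPKM times length fell on whole steps of equal size (tolerance 0.05), which gave read numbers and depth. For the main comparison, log2(RPKM + 1) of the 12320 RefSeq rows with a mean of at least 1 RPKM was fitted in limma 3.58.1 (R 4.3.3, mean-variance trend, two-sided, Benjamini-Hochberg, threshold 0.05). The methods speak of pairs of mice without saying which libraries form them or giving a paired test, so the main fit had no block. The procedure was tested on simulated data. P-values set the difference between the groups against the spread between 3 mice per group. That spread was drawn by limma toward that of rows of like level.

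Members and lists were chosen with earlier results of these data known. Named genes are the 4 most abundant rows of each class, all H1 rows, the rows at the level filter, 14 set supply genes and other called list genes; further rows are named where they are said to be picked after their values were seen. Alternatives were a replicate block, leaving out each library, other scaling, filters and pseudocount, limma without trend, a length trend removed and limma voom on recovered reads.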

Additional observations from a re-analysis of the deposited data

Results flagged for a closer look

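FANTOM3 rows, which no comparison of the histone rows used, overlap long histone rows, and 2 of these FANTOM3 rows were higher in every NICeCA library than in every Ctrl library. Among tested RefSeq rows, 40.9 percent did not overlap between the groups, so such a separation was common. In Hist4h4 (chromosome 6, 136801553 to 136804431), whose row held 1735 to 2781 reads per library, a FANTOM3 row of 2187 bases on the same strand inside it (136801805 to 136803991) held 34 to 68 reads. Its level was 0.445, 0.390 and 0.422 RPKM in Ctrl and 0.702, 0.829 and 0.835 RPKM in NICeCA libraries, where the Hist4h4 row itself overlapped between the groups. At the end of the Hist1h1d row, position 23558008, a FANTOM3 row (chromosome 13, 23557923 to 23560686) overlapped it and ran past it. This FANTOM3 row had 0.0649, 0.0363 and 0.0186 RPKM in Ctrl and 0.119, 0.123 and 0.117 RPKM in NICeCA libraries, from 2 to 12 reads. A FANTOM3 row of 1443 bases within the span of Hist1h2be (23607413 to 23608855) went the other way, with 0.337, 0.139 and 0.284 RPKM in Ctrl and 0.0190, 0.0393 and 0.112 RPKM in NICeCA libraries, from 1 to 19 reads. None of these differences was tested.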

How the results depend on the processing

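Over 15 alternatives the number of histone rows called was 0 in 14 and 1 without NICeCA replicate 3, so with 1 library left out it ranged from 0 to 1. The median log2 fold change of the tested histone rows was -0.01 in the main comparison, -0.20 without Ctrl replicate 1 and 0.15 without Ctrl replicate 2, the lowest and highest with a library left out. Without those libraries 15 and 22 of 60 rows had the other sign. Under quantile normalization the median was -0.30 for all tested histone rows, -0.54 for H1, -0.39 for H3, -0.35 for H2B, and -0.25 for H4 and for H2A, with 20 of 60 rows of other sign, and the cause was not tested. It was 0.06 after trimmed mean scaling and -0.18 with the length trend removed. Direction within the histone rows therefore depends on scaling and on Ctrl replicates 1 and 2. The share of all calls that were higher was 43.4% in the main comparison, 61.0% with trimmed mean scaling, 57.8% with quantile normalization, 74.1% with the length trend removed, 71.2% with no filter and 61.0% with the block. Of the called supply genes, Cabin1 lost its call in 4 alternatives, H3f3b, Sympk and Upf1 in 6 each, H3f3a, Ipo4 and Mki67 in 8 each and Hira in 9, all without a change of direction. H3f3a had a log2 fold change of 0.38 and H3f3b of 0.36 under quantile normalization. Same-numbered libraries did not deviate together (correlations 0.12, -0.34 and -0.18), so the numbers were not taken as the pairs of mice that the methods mention. With the replicate block 0 histone rows were called and 536 rows of all, against 1671, and of the 8 called supply genes Cabin1 alone kept its call. The other 7 had limma adjusted p from 0.0607 to 0.0798 at the same log2 fold changes. Rows of few reads and fully shared copies limit single members, and the log2 ratios of class sums, computed in 8 alternatives, also took either sign, from -0.30 to 0.09 for H2B and from -0.07 to 0.25 for H4.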

Other observations

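Most reads of Hist4h4 lay outside the 2187 bases that the FANTOM3 row covers, so RPKM averaged over its 2879 bases understates the level per base of the short transcript. Rows of 1000 bases or longer (13 rows) had a median level of 27.1 RPKM, and rows made of coding sequence alone (31 rows) one of 145 RPKM. Both sets hold fully shared rows. These are Hist1h2bq, Hist1h2br, Hist2h3c1 and Hist2h3c2 among the long rows, and Hist1h2ad, Hist1h2ap and Hist1h4n among the others. The part of row extent in this difference was not tested, and levels are best compared among rows of like extent.

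For comparison by length, short rows were taken apart. Of 415 tested rows of 300 to 700 bases, histones included, the median log2 fold change was 0.23 and 14.5% were called (limma). The 47 histone rows among them had a median of -0.05 and 0 calls. This comparison by length was added after the values were seen, and the cause was not tested.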
